A study of Mus musculus with 24 samples.

Results

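The change of the NOD islet itself between suckling age and the weeks after weaning was followed by comparing 6 female NOD/LtJ (NOD) mice of 4 weeks with 6 female NOD/LtJ mice of 10 days, in the Cy5 channel of 12 of the 24 arrays of the series. The arrays were chosen by their labelled age and channel alone, with no measured value. Islets were taken from single mice by collagenase digestion, and each array also held, in the Cy3 channel, islet RNA of a pool of 6 female NOD.B10Sn-H2b/J (NOD.B10) mice of the same age, a strain that carries another major histocompatibility haplotype on the NOD background. The mice of both strains came from a pathogen-free colony, and the labels name no treatment. The pool channel was kept apart here and read as 1 pool per age hybridised to all 6 arrays, because its arrays correlated at a median r of 0.998 at 10 days and 0.997 at 4 weeks, against 0.975 and 0.978 among the single NOD mice. The remaining 12 arrays, from NOD mice of 12 and 20 weeks, served only to place the 4 week levels.

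A mouse of 10 days lives on milk, which is rich in fat, and a mouse of 4 weeks has been weaned onto a diet rich in carbohydrate. Over this time beta cells are known to leave the cell cycle, to silence genes that would let them answer to the wrong fuels, and to gain glucose-stimulated insulin secretion, with urocortin 3 as a classic marker of the mature cell. The exocrine pancreas changes its enzymes over the same weeks, and in NOD mice lymphocytes begin to gather around the islets at about the end of them.

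Values are log2 signals, that is log2 spot intensities after background correction and quantile normalization over the 12 arrays of a channel, so they can be compared between mice for 1 gene but not between genes. A gene was called higher or lower when its Benjamini-Hochberg adjusted p in limma was under 0.05 and its change at least 2-fold. Errors of a change are the model's standard errors (SE), with n = 6 mice at each age. In the NOD channel 49.1% to 62.9% of probes were well above background at 10 days and 50.7% to 58.1% at 4 weeks. Several mice stood apart. The B cell and macrophage markers were highest in 10 day replicates 1, 3 and 5 and 4 week replicate 5, 10 day replicate 1 had the lowest acinar and Reg levels, 4 week replicates 3 and 5 had low Reg levels, and 10 day replicate 2 and 4 week replicates 2, 4 and 6 had the highest interferon response genes. Slide and age also overlapped only in part: 10 day replicates 1 to 4 lay on slide 1, 4 week replicates 3 to 6 on slide 3, and slide 2 alone held both ages, with 2 mice of each. A fit with slide as a block therefore rests on those 2 mice against 2, and its adjusted p is given below, singly or as a range over a group of genes, where it ended the call of a gene described. In bulk RNA of a whole preparation, fewer cells of a type and less RNA per cell cannot be told apart.

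Of 16167 genes tested, 452 were higher at 4 weeks (2.8%) and 354 were lower (2.19%), together 4.99%. Without the fold floor, 31.8% of genes passed the adjusted p. The mice of both ages did not overlap for 595 of the called genes. Among all genes tested, 9.96% had every 4 week mouse above every 10 day mouse, and 6.02% the reverse. With slide as a block, 1.05% of genes were higher and 0.47% lower, and 128 of the 452 and 65 of the 354 stayed called. Within slide 2, the direction was the same for 449 of the 452 and for 354 of the 354, and the change there was at least 2-fold for 306 and 252 of them. The mice of slide 2 are among those used for the calls, so part of this agreement is built in. The change also rose with the GC content of the probe (r = 0.19 across genes, which are not independent replicates): 0.927% of genes were called higher among probes of 35% to 40% GC and 7.88% among probes of 55% GC or more. The part of probe composition in the single results was not tested.

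**Figure D1:**
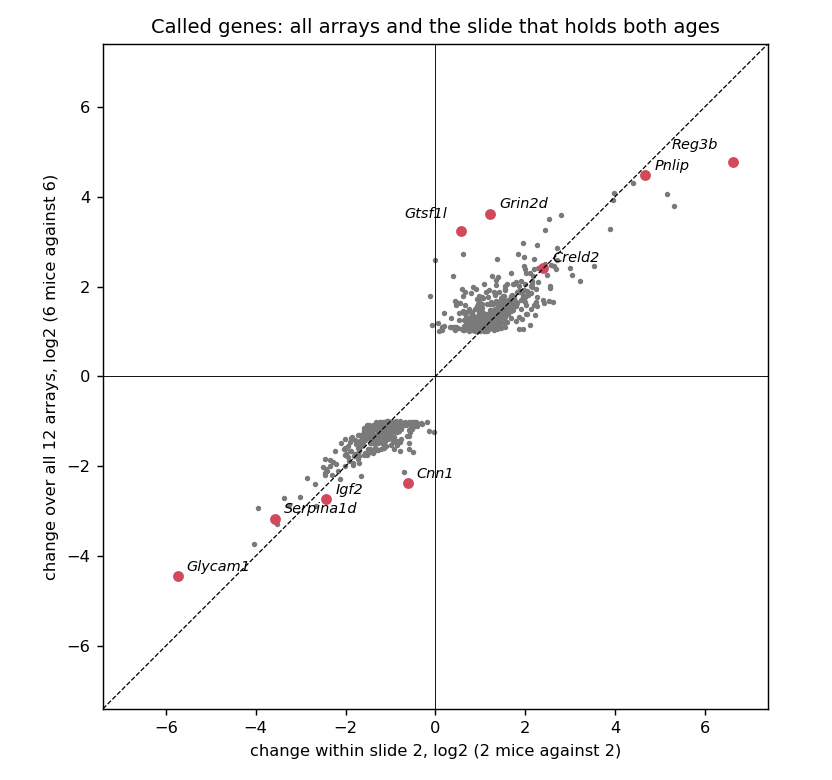
Each point is 1 of the 806 called genes, with its log2 change within slide 2 (2 mice against 2) on the horizontal axis and over all 12 arrays (6 against 6) on the vertical axis; the dashed line marks equality. Most points lie near the line, while Grin2d, Gtsf1l and Cnn1 changed by 1.21, 0.58 and -0.61 within slide 2 against 3.62, 3.24 and -2.38 over all arrays. The mice of slide 2 enter both axes.

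The largest changes were in the exocrine pancreas. All 6 Reg genes tested, which encode small secreted lectins of acinar cells that are induced by injury and diet, had a change above 0, and 5 of 6 were higher, with a median change of 2.96 against -0.002 over all genes. Reg3b (antibacterial lectin, probe on chromosome 6, bases 78323323 to 78323382 of mm9) had log2 signals of 9.54 at the lowest, 10.54 at the median and 11.71 at the highest in the 10 day mice, and of 12.47, 16.28 and 16.89 in the 4 week mice. The groups did not overlap, and the change was 4.77 ± 0.77 (SE), a 27.3-fold rise with an adjusted p of 0.000615. Its close relative Reg3g ran from 6.39 through a median of 7.10 to 7.79 at 10 days and from 7.85 through 11.16 to 13.42 at 4 weeks, a change of 4.07 ± 0.71 (adjusted p = 0.00106). For Reg3a the 10 day mice lay at 9.39, 11.52 and 12.12 (lowest, median, highest) and the 4 week mice at 12.02, 16.42 and 16.92, so the ages overlapped, and the change was 3.80 ± 0.91 (adjusted p = 0.00711). The lowest 4 week values of the family came from replicates 3 and 5, whose list levels were -0.13 and -0.67 on a scale centred on the 12 mice, while the other 4 week mice lay between 1.83 and 2.60. Reg3d was 3-fold higher (adjusted p = 0.0127) and Reg2 4.37-fold higher (adjusted p = 0.0424). The call of Reg2 was lost without any 1 of 8 mice (10 day replicates 1, 3, 5 and 6 and 4 week replicates 1, 2, 4 and 6), at adjusted p between 0.058 and 0.0904. With slide as a block Reg3b remained called (adjusted p = 0.026), whereas Reg3g (0.062), Reg3a (0.09), Reg3d (0.13) and Reg2 (0.2) did not. Probes of such close relatives can bind each other's transcripts, so which copy gave the signal is uncertain, as it is for the Serpina1, Serpina3, Ccl21 and Hspa1 genes below.

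Digestive enzymes lay above 0 throughout, and a part of them passed. Of 28 acinar enzyme and zymogen granule genes tested, all 28 had a change above 0, with a median of 0.66. In 21 of them every 4 week mouse lay above every 10 day mouse, as in 9.96% of all genes. Of the 28, 9 passed (32.1% against 2.8% of all genes). The other 19 had mean signals of 16.44 to 18.02 at 4 weeks, the range in which Ins2 also lay, at the upper end of the scale. Pnlip, the triglyceride lipase of the adult pancreas (chromosome 19, bases 58755296 to 58755355 of mm9), had log2 signals of 11.01, 12.72 and 13.77 at 10 days (lowest, median, highest) and 16.92, 17.08 and 17.30 at 4 weeks. This 22.3-fold rise (4.48 ± 0.35, adjusted p = 7.18e-06) left a gap of more than 3 log2 units between the ages, and a further Pnlip probe moved by 7.11. Pla2g1b, the secreted pancreatic phospholipase, ran from 8.81 through 10.22 to 11.20 and then from 14.31 through 14.46 to 14.98, a change of 4.30 ± 0.33 (adjusted p = 6.63e-06). Both kept their call with slide as a block (adjusted p = 0.013 each). Gp2, the main glycoprotein of the zymogen granule membrane, was 5.51-fold higher (adjusted p = 0.000188), with 10 day mice at 12.69 to 14.91 and 4 week mice at 16.02 to 16.78. Cuzd1, an acinar granule protein (3.14-fold), and the mucin-like Dmbt1 (3.13-fold) were higher too, at adjusted p of 0.00146 and 0.0104. The amylase Amy2a5 differed by 0.44 ± 0.11 and the carboxypeptidase Cpa1 by 0.60 ± 0.14, both under the 2-fold floor although their mice did not overlap. Their 10 day medians of 17.05 and 16.96 already lay near the upper end of the scale, which left little room for a 2-fold rise. Their changes therefore cannot be set against those of the dimmer enzymes.

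Of 17 genes of acinar identity and secretion, 6 were higher (35.3%), and all 17 had a change above 0, with a median of 0.52, or 0.87 within slide 2 where the enzymes had 0.65. Aqp12, an acinar aquaporin, had 10 day signals of 9.89, 11.49 and 12.14 and 4 week signals of 12.66, 12.79 and 13.45, a change of 1.54 ± 0.32 (adjusted p = 0.00284). Bhlha15 (Mist1), which sets up the secretory apparatus, was 2.49-fold higher with overlapping mice (adjusted p = 0.0118), and a further probe moved by 0.33. Ptf1a, the transcription factor of acinar fate, was 2.32-fold higher (0.0251), the trefoil peptide Tff2 2.19-fold (0.00608) and Gatm, the first enzyme of creatine synthesis, 2.19-fold (0.0161). Of the called acinar genes named here other than Pnlip and Pla2g1b, none passed with slide as a block, at adjusted p from 0.051 for Dmbt1 to 0.37 for Ptf1a. Without 10 day replicate 1, the mouse lowest in this list, 2 of 17 passed. Ptf1a (0.91), Tff2 (0.88) and Gatm (0.87) then fell under 2-fold. Gatm also lost its call without 4 week replicate 3 (0.98) and Ptf1a without 4 week replicate 1 (adjusted p = 0.0539) or 3 (0.0563). Without the 4 mice with most lymphoid RNA, a setting chosen after the data were seen, 4 enzymes and 3 identity genes passed. Without slide 3, 5 and 1 passed. Since acinar tissue clings to isolated islets, the acinar share of each preparation was not measured apart from these markers, and its part in the changes was not tested.

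**Figure D2:**
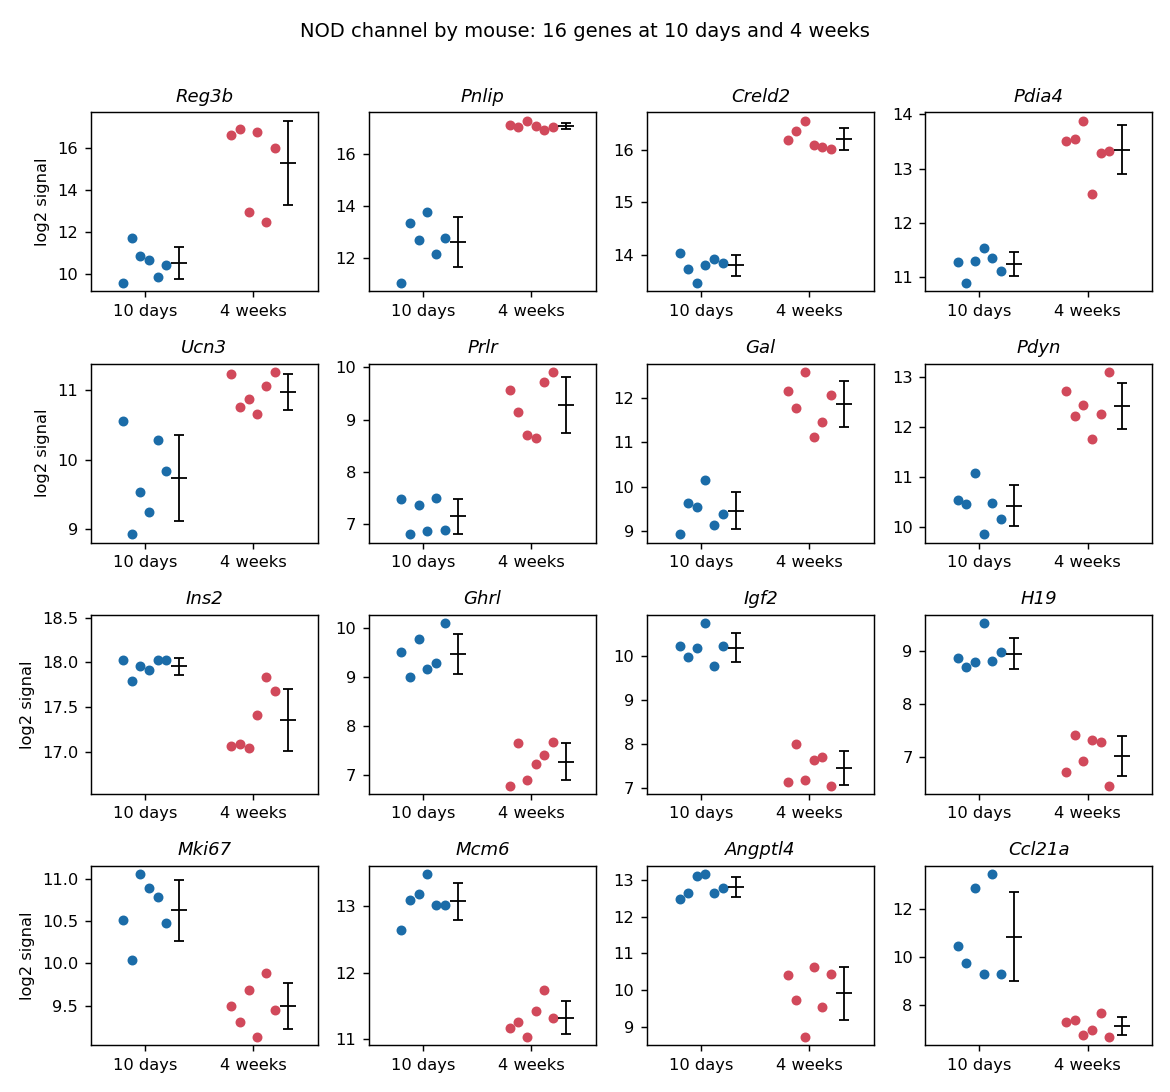
Each panel shows the log2 signal of 1 gene in the NOD channel, with 1 point per mouse and a bar for the mean ± SD of the 6 mice of 10 days and of 4 weeks. In Pnlip, Creld2 and Igf2 the ages are separated by a clear gap, whereas the 4 week mice spread from 12.47 to 16.89 for Reg3b and the 10 day mice from 9.28 to 13.45 for Ccl21a.

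The protein folding machinery of the endoplasmic reticulum (ER) stood out among the lists whose calls held with slide as a block. Of 26 chaperone and unfolded protein response genes tested, 12 were higher (46.2%) and none was lower, 24 had a change above 0, and the median was 0.94. With slide as a block 10 of 26 were called. Creld2, an ER stress-inducible secreted protein (chromosome 15, bases 88656997 to 88657056 of mm9), had log2 signals of 13.45, 13.82 and 14.03 at 10 days and 16.02, 16.15 and 16.56 at 4 weeks. The change was 2.42 ± 0.12, 5.33-fold, with an adjusted p of 4.42e-07, and it was 2.40 within slide 2. Pdia4, a protein disulfide isomerase, ran from 10.89 through 11.30 to 11.54 and then from 12.53 through 13.42 to 13.88, a change of 2.09 ± 0.19 (adjusted p = 1.56e-05). Syvn1 (Hrd1), the ubiquitin ligase that clears misfolded ER proteins, was 3.26-fold higher, with 10 day mice from 12.74 to 12.99 and 4 week mice from 13.87 to 15.50 (adjusted p = 0.000153), and a further probe moved by 0.86. Sdf2l1, a partner of the chaperone BiP (3.18-fold, adjusted p = 9e-06), and Dnajc3, the cochaperone p58IPK (3.15-fold, adjusted p = 1.81e-05), were also higher, and in none of these 5 genes did the ages overlap. The other 7 called members changed by between 1.09 and 1.43. The ER stress sensors were not among them: Atf6 differed by 0.25, Ern1 by 0.27 and Eif2ak3 by -0.0022. Xbp1, the transcription factor whose RNA Ern1 splices, differed by 0.28, and these genes were picked out after their values were seen. Derl3, a retrotranslocation factor that acinar and plasma cells use heavily and that stood in the plasma cell list, was 4.15-fold higher with 10 day mice from 9.95 to 11.99 and 4 week mice from 12.57 to 13.79 (adjusted p = 0.000261, and 0.07 with slide as a block). It was the 1 called gene of 5 tested plasma cell markers (20% against 2.8% of all genes).

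Of the 20 genes of the integrated stress response and serine synthesis, 1 was higher (5% against 2.8% of all genes). Fgf21, a hormone of fasting and stress that acinar cells also secrete, ran from 6.70 through 7.04 to 8.06 at 10 days and from 8.17 through 9.78 to 11.59 at 4 weeks, a 5.32-fold rise (adjusted p = 0.00341, and 0.12 with slide as a block). The list count was 6 without 10 day replicate 2 and 6 without 4 week replicate 5, 5 without 10 day replicate 4, 3 without 4 week replicate 6, and 2 without 10 day replicate 3 or 6 or 4 week replicate 1 or 4.

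In beta cells, 4 of 20 genes of the mature state were higher (20%), none was lower (1 was without 10 day replicate 5 or 4 week replicate 1), and the median change was 0.45. Ucn3, the stress peptide that marks mature beta cells (chromosome 13, bases 3940440 to 3940499 of mm9), had 10 day signals of 8.92, 9.68 and 10.56 and 4 week signals of 10.66, 10.97 and 11.27. The groups were adjacent without overlap, and the change was 1.25 ± 0.25, 2.37-fold (adjusted p = 0.00227). Prlr, the prolactin receptor, rose most, from 6.81, 7.13 and 7.51 to 8.64, 9.36 and 9.91, a change of 2.12 ± 0.23 (adjusted p = 4.95e-05), with further probes at 1.94 and 2.07. Ero1b, the oxidase that helps to fold proinsulin, was 2.61-fold higher (adjusted p = 0.000153), with other probes between 0.21 and 1.63, and Pcx, the pyruvate carboxylase of the beta cell's anaplerosis, 2.08-fold (0.000257). Pcx fell to 0.96 without 10 day replicate 4. With slide as a block Prlr remained called (adjusted p = 0.037), and Ucn3 (0.29), Ero1b (0.098) and Pcx (0.08) did not. The count was 7 of 20 without the 4 mice with most lymphoid RNA.

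Hormones and fuel sensors of the islet stayed under the call. Ins2 had signals of 17.79, 18 and 18.03 at 10 days and 17.04, 17.25 and 17.84 at 4 weeks, a difference of -0.60 ± 0.14 (adjusted p = 0.00609) below the 2-fold floor. Its 10 day signals lay at the upper end of the quantile-normalized scale, which left no room for a 2-fold rise, so the size of its change is uncertain. Ins1 differed by -0.64 ± 0.21 and glucagon (Gcg) by -0.43 ± 0.13, both under 2-fold, whereas somatostatin (Sst) differed by 0.12 ± 0.32. The pancreatic polypeptide gene Ppy varied widely among the mice, from 14.19 to 16.13 at 10 days and from 12.96 to 15.93 at 4 weeks (-0.84 ± 0.50, adjusted p = 0.224). Glucose transporter Slc2a2 differed by 0.68 ± 0.29 (adjusted p = 0.0892) and G6pc2, the islet glucose-6-phosphatase, by 0.30 ± 0.32 (0.508). Among 25 islet transcription factors none passed, 14 had a change above 0, and the median was 0.05. Mafa, the factor of the mature beta cell, differed by 0.48 ± 0.20 (adjusted p = 0.0895) and Pdx1 by 0.51 ± 0.16 (0.0271, under 2-fold). For Nkx6-1 the difference was 0.89 ± 0.35 (adjusted p = 0.0725), and it was 1.10 (0.0257) without 10 day replicate 1. The incretin receptor gene Glp1r differed by 0.59 ± 0.11 with no overlap of the ages. Of 21 granule and prohormone processing genes, 1 was higher in this fit (4.8% against 2.8% of all genes). It was Pcsk1, the convertase that makes the first cut in proinsulin, 2.4-fold higher with 10 day mice from 10.71 to 12.22 and 4 week mice from 12.47 to 13.31 (adjusted p = 0.00215, and 0.43 with slide as a block). Its other probe moved by 0.82. That count was 2 without 10 day replicate 1.

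Several neuropeptide and gut hormone genes changed more than the classical hormones. Gal, the inhibitory neuropeptide galanin, had signals of 8.93, 9.47 and 10.15 at 10 days and 11.11, 11.91 and 12.58 at 4 weeks, a 5.23-fold rise (adjusted p = 3.48e-05). Pdyn, the precursor of dynorphin opioid peptides, ran from 9.86 through 10.48 to 11.09 and then from 11.77 through 12.36 to 13.11, a 3.97-fold rise (adjusted p = 6.47e-05). Gast, the gastrin gene that fetal islets express, was 4.05-fold higher, with 10 day mice from 6.42 to 7.10 and 4 week mice from 8.46 to 9.19 (adjusted p = 6.63e-06). Ghrl, the ghrelin of epsilon cells, moved the other way, from 8.99, 9.39 and 10.10 to 6.79, 7.32 and 7.67, a 4.56-fold fall (adjusted p = 2.2e-05). Each of these 4 genes separated the ages without overlap and remained called with slide as a block (adjusted p = 0.02, 0.034, 0.016 and 0.015). They were the called genes among 17 other islet hormones tested (17.6% higher and 5.9% lower, against 2.8% and 2.19% of all genes). Of the 17, 7 had a change above 0 and 10 a change below 0, with a median of -0.55. The count of lower genes was 3 without 10 day replicate 1 or 5 and 2 without 4 week replicate 5. Neuropeptide Y (Npy) differed by 0.97 ± 0.25 and was just under 2-fold. It passed 2-fold without 10 day replicate 1 (1.15) or 6 (1.05) or 4 week replicate 3 (1.10) or 4 (1.03).

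Many genes of the cell cycle fell. Of 29 DNA replication genes tested, 13 were lower (44.8% against 2.19% of all genes), none was higher, 28 had a change below 0, and the median was -0.94. Of 26 mitosis genes, 9 were lower (34.6%), none was higher, 25 had a change below 0, and the median was -0.82. Chaf1b, a subunit of the factor that places histones on new DNA, had signals of 9.55, 9.95 and 10.29 at 10 days and 7.77, 8 and 8.30 at 4 weeks, a 3.83-fold fall (adjusted p = 6.63e-06). Mcm6, a subunit of the replicative helicase (chromosome 1, bases 130228178 to 130228237 of mm9), ran from 12.63 through 13.05 to 13.47 and then from 11.04 through 11.29 to 11.74, a 3.33-fold fall (adjusted p = 8.97e-06). Its partners Mcm3 (3.34-fold) and Mcm4 (2.71-fold) fell too, at adjusted p of 0.000134 and 0.000265, as did Uhrf1, which carries DNA methylation through replication (2.92-fold, 3.32e-05). Within slide 2 these 5 genes changed by -1.71, -1.79, -2.01, -1.69 and -1.65, in the order named here, and all 5 remained called with slide as a block, as did 10 members of the list. Mki67, the gene of the proliferation antigen Ki-67, had 10 day signals of 10.04, 10.65 and 11.06 and 4 week signals of 9.13, 9.47 and 9.89, a 2.2-fold fall (adjusted p = 0.000407, and 0.074 with slide as a block), and its other probe moved by -0.81. None of 17 D cyclin, kinase and inhibitor genes passed, though 1 did without 10 day replicate 2, 3, 4 or 6 or 4 week replicate 5 or 6: Ccnd2, the D cyclin that drives beta cell division after birth, differed by 0.59 ± 0.30, and the inhibitor Cdkn1a by 0.18 ± 0.35. In islet preparations that hold acinar, stromal and lymphoid cells these genes do not say which cells were cycling, and no value here separates them.

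Mitotic genes were lowest for Cenpe, a kinesin of the kinetochore, which ran from 9.84 through 10.47 to 10.92 at 10 days and from 8.59 through 8.95 to 9.42 at 4 weeks (2.82-fold lower, adjusted p = 0.000139). Prc1, which bundles the microtubules of the central spindle, had signals of 9.99, 10.16 and 10.62 and then 8.59, 8.82 and 9.01 (2.7-fold lower, adjusted p = 1.52e-05). Birc5 (survivin), of the chromosomal passenger complex, ran from 10.84 through 11.32 to 12.17 and then from 9.24 through 10.04 to 10.39 (2.64-fold lower, adjusted p = 0.000743). In all 3 genes every 4 week mouse lay below every 10 day mouse. Ccnb2, a mitotic cyclin (2.5-fold), and Cdc20, the activator of the anaphase-promoting complex (2.28-fold), were lower as well. Cenpe (0.047), Prc1 (0.02) and Ccnb2 (0.043) were the 3 mitosis genes that passed with slide as a block, and Birc5 (0.15) and Cdc20 (0.062) did not.

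Genes of late cell cycle are known to share promoter elements, the CCAAT box bound by NF-Y and the cell cycle homology region bound by the DREAM and MuvB complexes. The promoters of the 3 mitosis genes with the lowest change are therefore shown, as the 250 bases before the annotated start on GRCm38.p6 (RefSeq), 5′ to 3′ on the plus strand, with CCAAT in capitals; the motifs searched on both strands were CCAAT and TTTGAA, which do not overlap each other in these windows.
Cenpe, chr3:135212313-135212562: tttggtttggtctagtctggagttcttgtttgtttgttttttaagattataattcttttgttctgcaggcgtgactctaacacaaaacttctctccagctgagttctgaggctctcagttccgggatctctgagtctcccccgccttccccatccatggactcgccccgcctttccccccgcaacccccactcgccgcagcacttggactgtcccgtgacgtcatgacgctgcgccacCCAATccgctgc
Prc1, chr7:80294201-80294450: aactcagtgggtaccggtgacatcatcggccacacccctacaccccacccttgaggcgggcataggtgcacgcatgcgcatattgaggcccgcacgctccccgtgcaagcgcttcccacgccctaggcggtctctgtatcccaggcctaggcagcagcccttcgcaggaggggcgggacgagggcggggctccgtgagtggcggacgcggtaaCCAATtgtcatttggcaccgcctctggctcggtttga
Birc5, chr11:117848987-117849236: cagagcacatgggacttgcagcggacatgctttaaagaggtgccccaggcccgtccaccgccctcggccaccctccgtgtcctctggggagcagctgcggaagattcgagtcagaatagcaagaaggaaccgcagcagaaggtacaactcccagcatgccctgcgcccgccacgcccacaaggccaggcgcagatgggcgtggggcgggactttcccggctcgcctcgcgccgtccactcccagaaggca
Cenpe held CCAAT from -12 to -8 relative to the start. In Prc1, CCAAT lay from -37 to -33, and a TTTGAA from -5 to 1 ran over the start, so that its last base is not in the printed stretch. Neither motif was found in the Birc5 window, which like the others also covered the first bases of the gene, to 300 bases in all. Of 32851 promoters in the reference table, 33.8% held CCAAT and 16% held TTTGAA in these 250 bases, and 5.5% held both. Promoters of 21 of the 26 tested mitosis genes were searched, and the others were missing from the reference table or passed over by a rule on chromosome. Of the 21, 17 held CCAAT and 6 held TTTGAA, and also CCAAT, in these 250 bases. A match is a description of the letters and was not tied to the expression values.

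**Figure D3:**
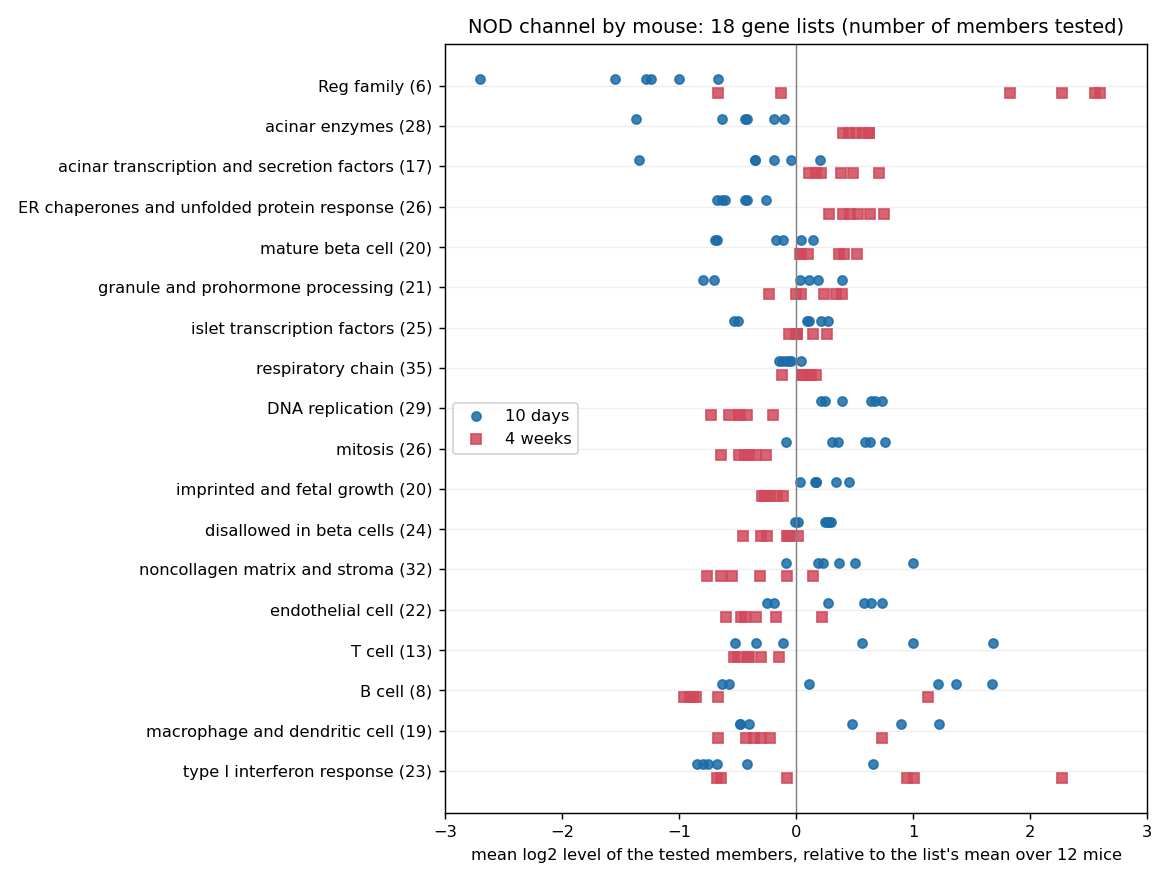
For 18 gene lists, each row shows the mean log2 level of the tested members in every mouse relative to the mean over the 12 mice, with circles for 10 days and squares for 4 weeks; the number of members tested stands in brackets. The ER, acinar enzyme, DNA replication, mitosis and imprinted lists separated the ages, and the T cell, B cell and interferon lists were spread among mice of 1 age.

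Imprinted genes of fetal growth were lower, but not as a whole list. Of 20 tested, 5 were lower (25%), none was higher, and the median change was -0.08. Igf2, the fetal insulin-like growth factor (chromosome 7, bases 149836673 to 149836709 of mm9), had signals of 9.77, 10.20 and 10.75 at 10 days and 7.06, 7.42 and 8 at 4 weeks. The 6.63-fold fall (-2.73 ± 0.19, adjusted p = 5.22e-06) left the ages well apart, and a further probe moved by -1.12. H19, the noncoding RNA of the same imprinted domain, ran from 8.70 through 8.84 to 9.52 and then from 6.46 through 7.10 to 7.42, a 3.8-fold fall (adjusted p = 2.2e-05), with a further probe at -1.10. Dlk1, a Notch-related ligand of progenitors, was 3.14-fold lower (adjusted p = 7.61e-05), and Mest 2.8-fold (0.00041), with no overlap of the ages. Plagl1, the transcription factor of an imprinted growth network, was 2.04-fold lower (0.0234) with overlapping mice, and its other probe moved by -0.35. Its change came under 2-fold without 10 day replicate 2 (-0.87), 4 (-0.85) or 6 (-0.98) or without 4 week replicate 5 (-0.91). Igf2, H19 and Dlk1 remained called with slide as a block (adjusted p = 0.013, 0.029 and 0.029), and Mest (0.098) and Plagl1 (0.66) did not.

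Of 25 tissue growth signals tested, 3 were lower (12% against 2.19% of all genes), Igf2 among them, and 1 was higher (4%). The median change was -0.3, and -0.08 within slide 2. The immediate growth targets Ccn2 (2.72-fold, adjusted p = 0.00135) and Ccn1 (2.32-fold, 0.00606) were lower, with 10 day mice of Ccn2 at 11.41 to 11.79 and 4 week mice at 8.88 to 11.01. Ccn1 came to -0.97 without 4 week replicate 4. Wnt4, a Wnt ligand tied to beta cell maturation, was 2.23-fold higher (adjusted p = 0.000594). With slide as a block Ccn2 (0.24), Ccn1 (0.29) and Wnt4 (0.21) did not pass. In the immediate early list, Egr2 (3.38-fold, adjusted p = 0.000675) and the heat shock gene Hspa1a (2.18-fold, 0.00128), which tissue dissociation is known to induce, were the 2 called of 18 (11.1%). Both were lower without overlap of the ages, and neither passed with slide as a block (0.13 and 0.21).

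Among 24 genes that beta cells normally silence, called disallowed, 3 were lower (12.5%), 20 had a change below 0, and the median was -0.31. Rest, the repressor of neuronal and secretory genes, had signals of 9.23, 9.30 and 10.06 at 10 days and 7.78, 7.98 and 8.67 at 4 weeks, a 2.6-fold fall (adjusted p = 0.000155), while its other probes moved by -0.58 and -0.17. Slc16a1, the lactate and pyruvate carrier MCT1, ran from 9.95 through 10.19 to 10.81 and then from 8.87 through 8.99 to 9.62, a 2.24-fold fall (adjusted p = 0.000289), with other probes at -0.99 and -0.43. Mgst1, a microsomal glutathione transferase, was 3-fold lower (0.000402). The ages did not overlap in any of these 3, and none passed with slide as a block (0.075, 0.12 and 0.14). Lactate dehydrogenase (Ldha) differed by -0.06 ± 0.14, with a further probe at 0.37, and hexokinase 1 (Hk1) by -0.53 ± 0.19 (adjusted p = 0.0526).

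Fat metabolism changed at a few genes. Angptl4, an inhibitor of lipoprotein lipase and a target of fatty acid receptors of the PPAR family (chromosome 17, bases 33911880 to 33911939 of mm9), had signals of 12.49, 12.72 and 13.16 at 10 days and 8.73, 10.07 and 10.63 at 4 weeks, a 7.43-fold fall (adjusted p = 2.55e-05). Acot1, a cytosolic acyl-CoA thioesterase and PPAR target, ran from 10.35 through 10.68 to 11.39 and then from 8.13 through 8.43 to 8.87, a 4.88-fold fall (adjusted p = 8.1e-06). Both remained called with slide as a block (0.033 and 0.018). They were the 2 lower genes of 22 for fatty acid oxidation and ketone metabolism (9.1% against 2.19% of all genes), and 1 was higher (4.5% against 2.8%). The 1 higher gene, Cyp4a10, also a PPAR target, was 3.46-fold higher with 4 week mice from 6.90 to 10.39 (adjusted p = 0.0113), but it changed by 0.62 within slide 2 (adjusted p = 0.635 with slide as a block) and a further probe moved by 0.05. Cd36, a fatty acid carrier in the adipocyte list, was 2-fold lower (0.0043, and 0.342 with slide as a block), with its other probe at -0.73, and came under 2-fold without 10 day replicate 1 or 4 or 4 week replicate 1, 3 or 6 (-0.97 to -0.83). Of 25 sterol and fatty acid synthesis genes 2 were higher (8% against 2.8% of all genes). Among them Mvd, an enzyme of the mevalonate pathway, was 2.42-fold higher (adjusted p = 0.00014, and 0.024 with slide as a block). Of 35 respiratory chain genes, 1 was called higher (2.9%, close to the 2.8% of all genes). It was Cox6a2, the muscle form of a cytochrome oxidase subunit, with 10 day mice from 6.21 to 6.86 and 4 week mice from 8.07 to 8.57 (3.48-fold, adjusted p = 6.63e-06, and 0.015 with slide as a block). Among 18 clock genes Nr1d1 was the 1 called (5.6%). It was 2.61-fold higher (0.000879), with other probes at 0.43 and 0.53 and an adjusted p of 0.11 with slide as a block. The labels hold no record of the hour of sampling.

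Stromal and vessel genes lay mostly below 0, with wide spread among mice. Of 32 noncollagen matrix genes, 7 were lower (21.9%), 30 had a change below 0, and the median was -0.76. Eln, the elastin gene, had signals of 9.17, 9.93 and 11.05 at 10 days and 7.86, 8.27 and 8.84 at 4 weeks, a 3.37-fold fall (adjusted p = 0.000835). Fibronectin (Fn1) was 3.31-fold lower (0.00694), Fbln5, an elastic fibre assembly protein, 2.75-fold (0.0128), the microfibril gene Mfap2 2.48-fold (0.00463) and Postn, a fibroblast matrix protein, 2.3-fold (0.00569), and in these 4 the ages overlapped. The other Mfap2 probe moved by 0.23. Of 19 collagens, Col14a1 (2.08-fold, adjusted p = 0.0226) and Col3a1 (2.04-fold, 0.03) were the 2 called (10.5% against 2.19% of all genes), and Col1a1 differed by -0.80 ± 0.41. Of 17 stellate cell and pericyte genes, 3 were lower (17.6% against 2.19% of all genes). They were the smooth muscle genes Cnn1 (5.2-fold, 0.00891) and Tagln (3.23-fold, 0.0174), and the fibroblast surface gene Thy1 (2.22-fold, 0.00999). Cnn1 ran from 9.32 through 9.61 to 11.28 and then from 6.67 through 7.19 to 10.40, with the high 4 week value in replicate 2.

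No matrix, collagen, stellate or endothelial gene passed with slide as a block. The adjusted p of the called matrix, collagen and stellate genes named here was then between 0.159 for Eln and 0.79 for Tagln, and without slide 3 the calls were 1 of 32 matrix genes, 0 collagens and 0 stellate genes. Without the 4 mice with most lymphoid RNA 6 matrix genes, 0 collagens and 0 stellate genes were called. The collagen calls turned on single mice. Col3a1 lost its call without 10 day replicate 1, 3, 4 or 5 or 4 week replicate 1, 3, 4 or 6 (adjusted p 0.0509 to 0.0682), and Col14a1 without 10 day replicate 1, 3 or 5 or 4 week replicate 3 or 4 (changes of -0.97 to -0.92), while 5 collagens passed without 10 day replicate 2 or 4 week replicate 5. Stellate calls numbered 7 without 10 day replicate 2, 6 without 10 day replicate 4 or 4 week replicate 5, and 5 without 4 week replicate 2.

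Of 22 endothelial genes, 4 were lower (18.2%), and 7 without 4 week replicate 5 (with slide as a block the 4 had adjusted p from 0.0819 for Cldn5 to 0.237 for Erg). Cldn5, the tight junction claudin of endothelium, had signals of 10.06, 10.45 and 11.10 at 10 days and 7.65, 8.43 and 9.38 at 4 weeks, a 3.97-fold fall with no overlap (adjusted p = 0.000304). Von Willebrand factor (Vwf) was 3.98-fold lower with overlapping mice (0.005). The endothelial transcription factors Erg (2.57-fold, 0.00136) and Sox17 (2.02-fold, 0.000589) were lower without overlap, though Sox17 came under 2-fold without 10 day replicate 3 or 5 or 4 week replicate 1, 4 or 6 (-0.98 to -0.91) and its other probe moved by -0.46. Of 20 duct genes, Aqp1, a water channel that endothelium also carries (2.94-fold, 0.003), and the carbonic anhydrase Car2 (2.88-fold, 0.000473), which red cells hold too and which was the 1 called of 12 erythroid genes, were lower, and Tff2 was the 1 higher. The shares were 10% lower and 5% higher for duct genes and 8.3% lower for erythroid genes, against 2.19% lower and 2.8% higher of all genes. Neither Aqp1 (0.338) nor Car2 (0.174) passed with slide as a block, and the erythroid count was 3 without 10 day replicate 2 and 2 without 4 week replicate 2 or 5. None of 16 Schwann cell and neural genes passed.

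Lymphoid RNA differed mainly between single mice. The T cell list ran from -0.52 to 1.68 around its mean at 10 days, with 10 day replicates 1, 3 and 5 at 0.56, 1.00 and 1.68, and from -0.53 to -0.15 at 4 weeks. Of 26 T cell genes listed, 13 passed the detection filter, and Cd8a, Cd28 and Zap70 were among those that did not. Of the 13, 3 were lower (23.1%): Cd3d, a chain of the T cell receptor complex, with 10 day mice at 6.38, 8.08 and 10.63 and 4 week mice at 6.03, 6.19 and 6.94 (3.64-fold, adjusted p = 0.0441), the transcription factor Lef1 (2.81-fold, 0.0409) and the costimulator Icos (2.7-fold, 0.00958). None of these 3 passed with slide as a block (0.347, 0.273 and 0.422). At 4 weeks Cd3d and Lef1 were each well above background on 1 of 6 arrays, so the sizes of their falls are uncertain. Cd3d and Lef1 each lost their call without any 1 of 8 mice (10 day replicates 1, 3 and 5 and 4 week replicates 1, 2, 3, 4 and 6, adjusted p 0.0719 to 0.0929 and 0.0604 to 0.0874), which left 1 called gene, and without the 4 mice with most lymphoid RNA 0 of 13 passed. None of 8 B cell genes (median -1.10), 19 macrophage and dendritic cell genes (-0.32), 3 neutrophil genes or 7 class II presentation genes passed over all 12 mice. These counts turned on single mice. For B cell genes 6 of 8 were lower without 4 week replicate 5, 4 without 10 day replicate 6 and 3 without 10 day replicate 4. Without 4 week replicate 5, 2 macrophage and dendritic cell genes and 1 class II gene were lower, and 1 class II gene was lower without 10 day replicate 2, 4 or 6. Ptprc, the pan-leukocyte gene CD45, differed by -1.38 ± 0.62 (adjusted p = 0.108).

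The lymphoid tissue list held the largest falls. Of 22 chemokine and lymphoid tissue genes, 6 were lower (27.3%). Glycam1, an L-selectin ligand of the high endothelial venules through which lymphocytes enter lymph nodes (chromosome 15, bases 103393339 to 103393398 of mm9), had signals of 9.51, 10.82 and 13.80 at 10 days and 6.44, 6.72 and 8.58 at 4 weeks. The ages did not overlap, and the fall was 21.9-fold (-4.45 ± 0.73, adjusted p = 0.000662, and 0.046 with slide as a block). Ccl21a, the chemokine that draws T cells into lymphoid tissue, ran from 9.28 through 10.09 to 13.45 and then from 6.68 through 7.13 to 7.66 (13.2-fold lower, adjusted p = 0.00132, and 0.12 with slide as a block). Madcam1, the venule addressin for gut-homing lymphocytes, was 3.76-fold lower without overlap (0.00684). Outside the list, Fut7, the fucosyltransferase that completes selectin ligands, was 7.57-fold lower, with 10 day mice from 7.43 to 11.84 and 4 week mice from 6.06 to 6.84 (0.0106). Ccl19 (6.52-fold, 0.0284) and the lymphoid organiser Ltb (4.81-fold, 0.0273) were lower with overlapping mice. Madcam1 (0.186), Fut7 (0.151), Ccl19 (0.291) and Ltb (0.287) did not pass with slide as a block. At 4 weeks Fut7 was well above background on 1 of 6 arrays and Madcam1 on 2, so the sizes of their falls are uncertain. The call of Ccl19 was lost without 10 day replicate 3 or 4 week replicate 1, 3 or 4 (0.0518 to 0.0598) and that of Ltb without 10 day replicate 3 or 5 or 4 week replicate 1, 2, 4 or 6 (0.0504 to 0.0599). The list count was 3 without 4 week replicate 1, and 1 without slide 3. These 6 genes were highest in 10 day replicates 3 and 5, which together with replicate 1 had the highest T and B cell list levels of that age, and the part of lymphoid tissue in those preparations was not tested. Without the 4 mice with most lymphoid RNA 5 of 22 remained lower.

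The type I interferon response list was at the other end. All 23 genes tested had a change above 0, with a median of 0.95, but none passed over all 12 mice, and no adjusted p was under 0.0604. Leaving out 1 mouse changed that count to 5 (4 week replicate 5), 4 (10 day replicate 2) or 3 (4 week replicate 3). The list level ran from -0.85 to 0.66 at 10 days and from -0.68 to 2.27 at 4 weeks, so that 4 week replicates 2, 4 and 6 (1.01, 2.27 and 0.95) lay above all 10 day mice while 4 week replicates 3 and 5 (-0.64 and -0.68) lay at the 10 day level. Rsad2 (2.35) and Ifit3 (2.26), antiviral effectors picked out after their values were seen, had the largest differences. With slide as a fixed block 0 of 23 passed, and with slide as a random block 7 of 23. The correlation estimated for the random block was negative (-0.18), which can narrow the errors of an age comparison lying mostly between slides.

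Other genes completed the extremes. Itih4, a heavy chain of the hyaluronan-binding inter-alpha inhibitors, was 9.67-fold higher (10 day mice 6.58 to 6.98, 4 week mice 8.58 to 10.60, adjusted p = 1.47e-05), and Ntsr1, a neurotensin receptor, 11.4-fold (6.12 to 6.79 and 9.03 to 11.29, adjusted p = 1.49e-05); both remained called with slide as a block (0.013 each). Dnaic1, an intermediate chain of ciliary dynein, was 17-fold higher, from 8.37, 9.80 and 10.68 to 13.61, 13.92 and 14.23 (adjusted p = 6.73e-06, and 0.015 with slide as a block). The probe of the coactivator gene Ncoa3 was 12.1-fold higher (3.36e-05), but its other probes moved by -0.25 and 0.07, so the value may not stand for the gene. The 18S ribosomal RNA probe (Rn18s) rose 9.5-fold (0.000242) with a further probe at 1.03 and did not pass with slide as a block (0.13). Grin2d, a glutamate receptor subunit, was 12.3-fold higher and Gtsf1l at least 9.32-fold higher (adjusted p = 0.00418 and 0.00558; Gtsf1l was not well above background on any 10 day array). Neither passed with slide as a block (0.523 and 0.252), and these 2 stood out for their slide. Their probes changed by 1.21 and 0.58 within slide 2, and among the 4 week arrays slide 3 lay above slide 2 by 3.64 and 2.93 in the pool channel too, although 1 pool RNA was read there. In all, 14 genes called higher were at least 2-fold brighter on slide 3 than on slide 2 in both channels at 4 weeks. Ntsr1 was among them, by 1.34 in the NOD channel and 1.28 in the pool channel.

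Among the lowest genes, the protease inhibitors Serpina1d (9-fold, adjusted p = 0.00197) and Serpina3g (7.23-fold, 0.00196) belong to large families of close copies. Serpina1d ran from 9.67 through 10.98 to 13.40 and then from 7.67 through 8.04 to 9.43. A T cell receptor beta segment (Tcrb-J) was 5.28-fold lower (0.00392). Wfdc2, a secreted epithelial protein, had signals of 10.02, 10.53 and 11.66 and then 8.14, 8.41 and 8.82 (4.63-fold lower, 7.77e-05). In each of these 4 the ages did not overlap, and none passed with slide as a block (0.059 for Wfdc2 to 0.18 for Tcrb-J).

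Whether NOD.B10 islets changed in the same way could be read only from 1 pool per age, which allows values but no test. In the pool 7.17% of genes were at least 2-fold higher at 4 weeks and 8.69% at least 2-fold lower. The changes of both channels, which share arrays, correlated across genes at r = 0.6, with genes not independent replicates. Of the 452 genes higher in NOD mice 382 had a pool change above 0 and 148 one of at least 2-fold, and of the 354 lower genes 348 were below 0 and 305 at least 2-fold lower. Among all called genes 8 moved at least 2-fold the opposite way in the pool. The cell cycle went together: 16 of 29 replication and 12 of 26 mitosis genes were at least 2-fold lower in the pool, and the pool signal of Mcm6 went from 13.07 to 11.51. For Pnlip it went from 10.76 to 15.17, and for Creld2 from 13.15 to 14.70.

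The difference of the changes, NOD minus pool, was tested within arrays against the spread of the NOD mice alone, since the spread between NOD.B10 animals was not measured. It passed in 917 genes toward higher in NOD (5.67%) and 736 toward lower (4.55%). With scaling to the 75th percentile, which moved the median of all genes by 0.102 in the NOD change and by 0.167 in the difference, the split was 2267 to 853. Maturation genes of the islet differed between the channels. Of 20 mature beta cell genes 15 were at least 2-fold higher in the pool and 15 had a difference toward lower in NOD, and of 21 granule genes 20 and 18. In Ucn3 the pool signal went from 8.05 to 11.16, and the NOD change was smaller by 1.86 (adjusted p = 8.5e-06). For Ins2 it went from 15.99 to 17.69, a difference of -2.30 (0.0014), for Slc2a2 from 8.86 to 11.59 (-2.04, 9.8e-05), for Mafa from 6.54 to 8.32 (-1.30, 5.9e-05) and for Pdyn from 10.39 to 14.63 (-2.26, 1.8e-05). The alpha, delta and PP cell hormones went the same way, with differences of -2.69 for Gcg, -2.88 for Sst and -4.03 for Ppy. Gal and Gast were the reverse, higher in NOD by 1.27 and 1.26. The pool signal of the brightest hormones was not stable at 10 days, although 1 RNA was read on all 6 arrays. It ran from 14.71 to 17.37 for Ins2, from 14.79 to 16.23 for Ins1 and from 13.12 to 14.63 for Gcg, ranges of 2.66, 1.44 and 1.51 against a median range of 0.2 over 120 genes described. The 3 lowest Ins2 values of the pool came from the 3 arrays on which the NOD signal of Ins2 was highest, at 18.03. The range of the Ins2 pool signal exceeds the difference given, and the NOD signal of Ins2 lay at the upper end of the scale at 10 days. The sizes for these 3 hormones are therefore uncertain, and the cause was not tested.

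Stroma and acinar tissue moved in the pool as well. Of 32 noncollagen matrix genes 26 were at least 2-fold lower in the pool and 20 had a difference toward higher in NOD, as had 12 of 19 collagens. Pool signals of Col1a1 went from 13.88 to 9.90 and of Igf2 from 12.23 to 7.27, and their NOD changes differed by 3.18 and 2.23 (adjusted p = 5.2e-05 and 3.6e-06). Of 28 acinar enzymes 11 were at least 2-fold lower in the pool, and 24 had a difference toward higher in NOD. For Cpa1 the pool went from 16.88, with a range of 1.05 over its arrays, to 15.60 (difference 1.88, adjusted p = 7e-05). Of 24 disallowed genes 18 were at least 2-fold lower in the pool, and Ldha went from 12.62 to 10.89 there (difference 1.67, 3.1e-06). Beta cell, stromal and acinar genes thus all moved between the pools at once, and the part of islet purity in the differences was not tested. Of 26 ER chaperone genes 12 were at least 2-fold higher in the pool, and 2 differed in each direction, and of the 29 replication and 26 mitosis genes none passed the test of the difference, with adjusted p of 0.32 for Mcm6 and 0.62 for Mki67.

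**Figure D4:**
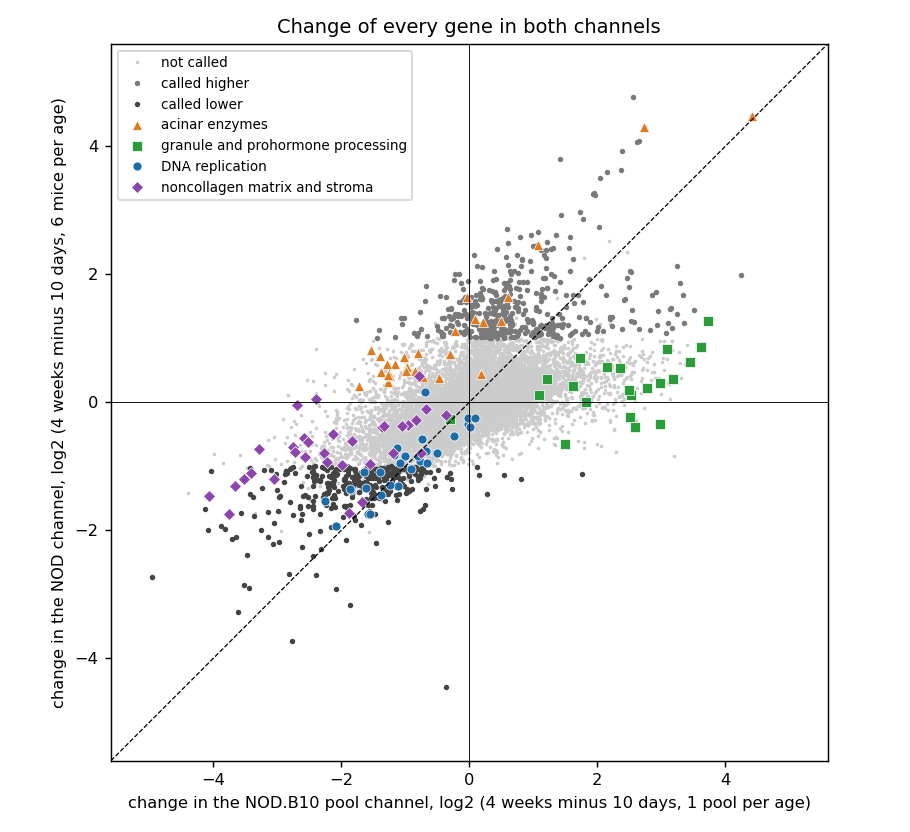
Each point is 1 gene, with the log2 change between the NOD.B10 pools on the horizontal axis and between the NOD mice on the vertical axis, called genes and 4 lists marked by colour, and a dashed line of equality. Most granule and prohormone processing genes lie to the right of the line and most matrix and acinar genes to its left, while DNA replication genes scatter along it.

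Set beside the NOD mice of 12 and 20 weeks, the 4 week means were not always near the later ones. These means come from 24 arrays normalized together and were not tested. The 12 and 20 week arrays lay on slides 4 to 6, without any 10 day or 4 week mouse. Later age and slide therefore cannot be told apart. Called genes were chosen for their gap between 10 days and 4 weeks, and the part of that choice here was not tested. T cell RNA was also higher at the later ages: the mean signal of Cd3d was 10.97 at 12 weeks and 10.50 at 20 weeks, against 8.06 at 10 days and 6.32 at 4 weeks. Whether it came from the islets or from lymphoid tissue in the preparations was not tested. Of the 452 genes higher at 4 weeks, 146 (32.3%) had means at both later ages nearer to the 10 day than to the 4 week mean, and 113 were nearer to 4 weeks at both. Of the 354 lower genes, 143 (40.4%) were nearer to 10 days at both and 152 nearer to 4 weeks. Of the 12 called ER genes 6 lay nearer to 10 days at both ages. Pdia4 rose from a mean of 11.04 to 13.13 between 10 days and 4 weeks and stood at 11.25 and 11.30 later, and that of Derl3 went from 10.88 to 12.91 and then to 11.15 and 11.21. Reg3a followed the same course, from 11.11 to 14.90 and then to 10.80 and 11.42. In Pnlip the later means were 16.69 and 16.27, nearer to 4 weeks. The 5 called imprinted genes and the 7 called matrix genes all lay nearer to 4 weeks at both later ages, with Igf2 at 7.21 and 7.48. The 3 called T cell genes and 5 of 6 called lymphoid tissue genes lay nearer to 10 days. Of the 13 called replication genes 9 lay nearer to 10 days at 12 weeks and 5 at 20 weeks, with Mcm6 at 12.55 and 12.19.

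**Figure D5:**
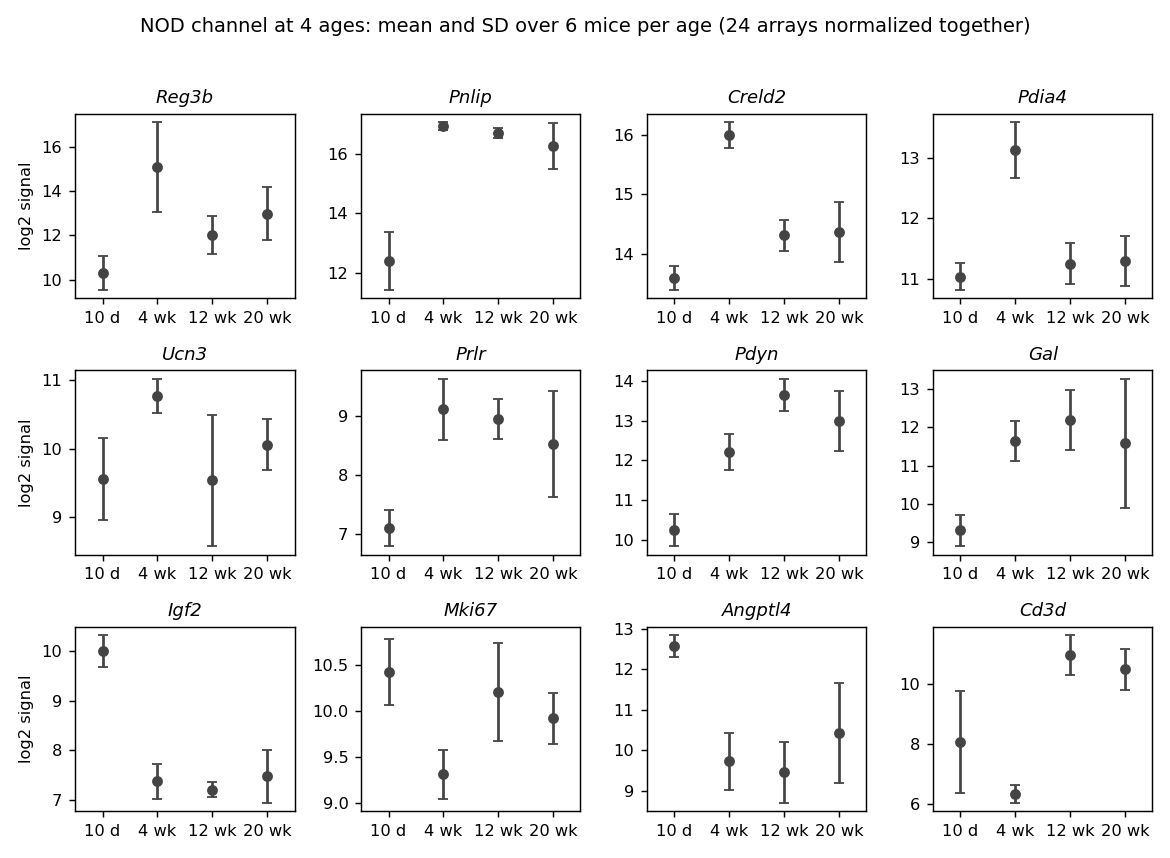
Each panel gives the mean ± SD of the log2 signal over 6 NOD mice at 10 days, 4, 12 and 20 weeks, after quantile normalization of all 24 arrays. Creld2, Pdia4 and Reg3b had their highest mean at 4 weeks, Pnlip and Igf2 lay near their 4 week level later, and Cd3d was highest at 12 weeks. The 12 and 20 week arrays lay on slides 4 to 6, apart from the younger mice.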

How the data were processed

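Islet RNA of single female NOD mice (Cy5) and of pools of 6 age-matched NOD.B10 females (Cy3) was read on two-colour Agilent arrays of design 014868. The deposited scanner files come from Feature Extraction 10.7.3.1 per the file headers and give for each channel a mean intensity per spot, the local background and flags for 45018 spots (1639 of them controls) and a log10 ratio after the scanner software's lowess dye normalization. The deposited value table gives log2 ratios for 22122 entries. Its slope against the scanner ratio on the log2 scale was 1 in every column and its column medians ran from -0.18 to 0.09, so it was not centred. Probe positions are on mm9 per the file headers.

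From the intensities, values were computed with the R packages limma 3.58.1, data.table (1.17.8) and statmod 1.5.0 under R 4.3.3. Each channel was background corrected by normexp (offset 50), control and outlier-flagged spots were dropped, which left 21 missing values among the genes tested, and signals were quantile normalized over the 12 arrays and put on the log2 scale. Of 41174 probes, 22831 were kept for being well above background in the NOD channel on at least 6 arrays. Names came from RefSeq accessions (27137 probes), current symbols (4097), older symbols (572) or the file alone (9368). The probe of highest mean stood for a gene, and other probes of a called gene are given at least where they did not move 2-fold in the same direction. limma (lmFit, eBayes) was fitted to both ages with no covariate. The difference from the pool was fitted to the within-array difference of the channels. The array number limits precision, and p-values measure the spread between mice labelled as biological replicates. In simulated data of 16167 genes for 4 weeks against 10 days, 47 of 50 genes raised by 1.5 and 48 of 50 lowered by 1.5 were called, 49 and 50 of 50 at a change of 3, and 4 of 15967 unchanged genes. The simulation drew genes independently, with no slide effect, no shared differences between mice and no GC trend. It therefore does not give the error rate of these data.

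Members and gene lists were chosen with earlier results of these data known, so a list's count is a description beside the count over all genes and no test of the list. Named genes are the 12 highest and 12 lowest called genes with no overlap of the ages, up to 5 called members of each list in each direction, and a fixed set of 36, of which 34 were tested. Values of some of these genes are not reported here, though the fit and the list counts include them. Alternatives covered background correction, scaling, detection filter, choice of probe, variance prior, slide, replicate number, single mice and, chosen after seeing the data, slide 2 alone, slide 3 left out, the 4 mice with most lymphoid RNA left out and the deposited table.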

Additional observations from a re-analysis of the deposited data

Results flagged for a closer look

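With 6 mice per age, 20 values of the genes described and 8 list levels lay far from the other mice of their age by Dixon's criterion, of 240 and 78 groups examined. Chance alone marks about 1 in 20. Of these, 12 fell on 4 week replicate 5 and 7 on 10 day replicate 1.

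In 4 week replicate 5 the log2 signal was high for Glycam1 (8.58), Fut7 (6.84), Cd3d (6.94), Lef1 (6.91), Ptprc (8.60) and Postn (9.95), and low for Nr1d1 (7.88) and Plagl1 (9.62). Its list levels, relative to the mean of the 12 mice, were high for B cell (1.13), macrophage and dendritic cell (0.73) and neutrophil genes (1.31) and low for the integrated stress response (-0.45). In 10 day replicate 1 the signal was low for Reg3a (9.39), Reg2 (12.11), Reg3d (10.83), Cuzd1 (11.21) and Cpa1 (16.18). The level of the acinar transcription and secretion list was low there (-1.34) and that of neutrophil genes high (1.80).

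Among the other 10 day mice, replicate 4 was low for Rn18s (10.66) and high for Mgst1 (11.73) and H19 (9.52), and replicate 2 was low for Mest (9.78) and high for the interferon list (0.66). Among the other 4 week mice, replicate 2 was high for Cnn1 (10.40), replicate 3 was high for Aqp12 (13.45) and low for Ins1 (15.85), and replicate 4 was high for the plasma cell list (0.43).

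The change in NOD mice differed from that of the NOD.B10 pool, by the test of the difference itself in limma, in 65 of 120 genes described. The difference was toward higher in NOD for 45 genes. In matrix and vessel it was 3.18 for Col1a1, 2.62 for Fbln5, 2.40 for Col3a1, 2.35 for Mfap2, 2.16 for Col14a1, 2.09 for Vwf, 2.01 for Eln, 1.86 for Postn, 1.29 for Tagln, 1.27 for Cldn5, 1.24 for Aqp1 and 1.02 for Thy1. In acinar tissue it was 2.54 for Gatm, 2.27 for Reg3d, 2.26 for Ptf1a, 1.88 for Cpa1, 1.79 for Reg1, 1.73 for Bhlha15, 1.68 for Dmbt1, 1.66 for Derl3, 1.62 for Tff2, 1.57 for Pla2g1b, 1.5 for Aqp12, 1.38 for Gp2 and 1.05 for Cuzd1. In growth and metabolism it was 2.23 for Igf2, 1.96 for H19, 1.90 for Mest, 1.67 for Ldha, 1.62 for Rest, 1.43 for Nr1d1, 1.42 for Cd36, 1.29 for Slc16a1, 1.16 for Ccn1, 1.12 for Ccn2 and 1.05 for Cyp4a10. Further values were 1.47 for Ntsr1, 1.45 for Ncoa3, 1.44 for Dnaic1, 1.33 for Itih4, 1.32 for Rn18s, 1.28 for Gtsf1l, 1.27 for Gal, 1.26 for Gast and 1.25 for Grin2d.

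For 20 genes the difference was toward lower in NOD. Among hormones it was -4.03 for Ppy, -2.88 for Sst, -2.69 for Gcg, -2.63 for Ins1, -2.30 for Ins2, -2.26 for Pdyn and -1.08 for Npy. Among genes of the beta cell it was -2.80 for G6pc2, -2.51 for Nkx6-1, -2.46 for Pcsk1, -2.04 for Slc2a2, -1.86 for Ero1b, -1.86 for Ucn3, -1.38 for Ccnd2, -1.30 for Mafa, -1.23 for Wnt4, -1.11 for Prlr and -1.11 for Pdx1. It was -4.09 for Glycam1 and -2.90 for Hspa1a. The spread between NOD.B10 animals is not in these tests.

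Leaving out 1 mouse ended the call of some differences. That of Tagln was lost without 10 day replicate 2, 4 or 6 or 4 week replicate 2 or 5 (adjusted p 0.0577 to 0.0683), and that of Thy1 without any 1 of the same 5 mice (differences of 0.86 to 0.98). Cuzd1 lost it without 10 day replicate 1 (0.71) or 4 week replicate 3 (0.95), Cyp4a10 without 4 week replicate 3 (0.80) or 4 (0.97), Npy without 10 day replicate 1 (-0.94), Ccn1 without 4 week replicate 3 (0.99) and Ccn2 without 4 week replicate 5 (0.93). Of the 65 differences 16 did not pass with slide as a block, at adjusted p from 0.0505 for Tff2 to 0.376 for Cyp4a10, the others being Aqp12, Bhlha15, Cuzd1, Gp2, Pla2g1b, Ccn1, Ccn2, Aqp1, Cldn5, Vwf, Thy1, Ncoa3, Rn18s and Gtsf1l. The pool signal, read from 1 RNA on 6 arrays, ranged over more than 1 log2 unit in 8 of 120 genes at 10 days and in 9 at 4 weeks.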

How the results depend on the processing

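The count of genes higher at 4 weeks, 452 as reported, was 911 with a normexp offset of 0, 1052 with plain background subtraction, 1263 with the scanner's processed signal, 2775 without the fold floor and 170 with slide as a block. The 354 lower genes became 718, 823, 970, 2364 and 76 under the same settings, 150 on slide 2 alone and 197 without slide 3. A smaller offset widens fold changes of dim probes by construction, and the slide fit and slide 2 alone leave 2 mice against 2 to carry the age. For the difference from the pool change the 917 genes toward higher in NOD became 1544 (offset 0), 1556 (plain subtraction), 2035 (processed signal), 2267 (75th percentile), 3625 (no fold floor) and 1801 (deposited table), and the 736 toward lower became 1465, 1338 and 1972 under the first 3 of these, 4384 without the fold floor and 1925 in the deposited table. The cause of these shifts beyond the settings' construction was not tested. Other settings kept the 4 counts within 1.5 times. Leaving out 1 mouse at a time gave 398 to 519 and 291 to 432 genes for the NOD change and 876 to 970 and 673 to 831 for the difference. With slide as a random block, whose estimated correlation was -0.18 and -0.2, the counts were 496, 439, 895 and 692.

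Replicate numbers do not pair the mice: same-numbered mice of both ages correlated at -0.16 to 0.62 in their deviations, and 2 of 6 correlated best with their own number. With the replicate number as a block 460 genes were higher and 372 lower, and the difference from the pool passed in 931 and 738 genes.

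Of the 120 genes described, 65 lost their call with slide as a block, 34 on slide 2 alone, 34 without slide 3, 17 without the 4 mice with most lymphoid RNA, 10 with the mean over a gene's probes and 7 with 75th percentile scaling. No called NOD change turned its sign. Among differences from the pool change, that of Ccl19, not called over all mice (-0.31, adjusted p = 0.795), came to 1.25 (0.0108) without those 4 mice, and 10 further differences changed sign there without a call, against at most 8 under any other setting. Probes near background limit what can be said of T, B and plasma cell genes, many of which did not pass the detection filter.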
